A study of Mus musculus with 8 samples.

Results

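The nuclear genes of respiratory complex I carry symbols that begin with Nduf. All probes whose gene symbol, or the gene of whose RefSeq accession, begins with Nduf were taken, and pseudogenes were left out. This gave 46 genes, read by 65 probes, of 47243 names on the array. All 46 were among the 42430 genes tested. Membership was set by names alone and no array value. The probe that stood for each gene was then the brightest over all arrays.

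The cells were donor-derived myeloid cells from the ischemic brain of mice. Bone marrow that expressed the red fluorescent protein DsRed, from Psgl1+/+ or Psgl1-/- donors, had been transplanted into wild-type hosts. Psgl1 (symbol Selplg) encodes PSGL-1, a leukocyte ligand of selectins, and the title names the donors Selplg-WT and Selplg-KO. Stroke was modelled by 30 min of occlusion of a cerebral artery (MCAo), and tissue was taken at 7 days. Cells were sorted as PI- DsRed+ CD11b+ Ly6G- CD3- CD45hi, so that dead cells, neutrophils and T cells were gated out. Resident cells of the host carry no DsRed. Each of 8 samples, 4 labelled Psgl1+/+ (wild-type replicates 1 to 4) and 4 labelled Psgl1-/- (knockout replicates 5 to 8), was hybridised to 1 single-colour array. The labels do not say how many animals each sample pooled, so p-values cover only the spread among these samples, part of which may be technical. The comparison asks how complex I RNA differs with the donor genotype.

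Complex I takes electrons from NADH, passes them over iron-sulfur clusters to ubiquinone and pumps protons across the inner mitochondrial membrane. Core subunits do this chemistry. Those of the peripheral arm are encoded in the nucleus, those of the membrane arm in mitochondrial DNA, and nuclear supernumerary subunits surround both. Separate assembly factors build the complex and leave it. In macrophages, complex I activity is known to shift with the activation state.

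A probe is a short DNA sequence fixed to the array, and the gene values depend on which stretch of the transcript it reads. The stretches shown here come from the probes of the genes whose wild-type and knockout arrays did not overlap, and of Ndufs1. Of the Ndufs1 probes only 1 was bright enough to be tested. Each stretch is 30 bases, 5′ to 3′, and capitals mark the polyadenylation hexamer AATAAA, which lies near the end of many transcripts.
Ndufv1: gggaaactggacAATAAAcaagtgctgtcc
Ndufc1: ttttgcatggttaagttaaagaAATAAAaa
Ndufa8: cacccgtgccgatctcgtgttctttcctgg
Ndufc2: tcctatagttggagtcgaggtcaaacctct
Ndufs1, RefSeq mRNA probe: gtccatatgctgagacatctaacagggacc
Ndufs1, Ensembl probe: caaaaagaaaaagagagacactctgctatg
The Ndufv1 stretch covers bases 24 to 53 of a 55-base probe and the Ndufc1 stretch bases 22 to 51 of a 51-base probe. The others start at the first base. The Ndufs1 probe of the Ensembl transcript lies at chr1:63196822-63196881 (mm9, minus strand). The files place no probe of a RefSeq mRNA on the genome. Of 48 Nduf probes with a RefSeq mRNA accession, 7 held the hexamer (14.6%), against 7.15% of all 28484 such probes.

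No Nduf gene differed between the groups past the adjusted threshold of 0.05 (limma, adjusted by Benjamini-Hochberg over the whole table), where 0.00236% of all tested genes did. At an unadjusted p under 0.05, 4 Nduf genes were higher in the arrays labelled knockout (Ndufv1, Ndufa8, Ndufc1 and Ndufs1) and 1 was lower (Ndufc2). The 4 are 8.70% of the Nduf genes, against 1.62% of all genes higher, and the 1 is 2.17%, against 9.21% of all genes lower. Ndufv1, Ndufc1 and Ndufs1 were dim on 2 or 3 wild-type arrays and passed the filter on low signal mainly through the knockout arrays, where they were bright. Their p-values therefore rest in part on wild-type values at background. Among the 36 Nduf genes well above background on all 8 arrays, 1 was higher (Ndufa8), against 1.44% of all genes under that filter. Every knockout array lay above every wild-type array for 3 Nduf genes (Ndufv1, Ndufa8 and Ndufc1), which is 6.52%, against 0.648% of all genes. With the filter on all 8 arrays this count was 1 of 36, against 0.561%. Every knockout array lay below for 1, Ndufc2, or 2.17%, against 10.8% of all genes.

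The direction of the Nduf genes differed from that of the array as a whole. The difference (knockout minus wild-type, on the scaled log2 signal) was positive for 33 of 46 Nduf genes, or 71.7%, against 31.0% of all genes. Its median was 0.69 for Nduf genes and -0.33 for all tested genes, so that the Nduf median stood 1.01 above that of the array. Differences above 2, which is 4-fold, were measured for 10 of 46, against 3.66% of all genes, and differences below -2 for 1 of 46, against 2.73%. Of those 10, Ndufv1, Ndufc1, Ndufs1, Ndufs5 and Ndufb6 had wild-type arrays not well above background, so their sizes are uncertain. Among genes read by a probe of a RefSeq mRNA the median was -0.28, so the accession type of the probe moved the background median little. With RefSeq mRNA probes alone the background shares were higher, and 34 of 45 Nduf genes were positive, against 36.9% of all genes. At an unadjusted p under 0.05 (limma), 4 of the 45 were higher there, against 2.40%. Every knockout array lay above for 3 of them, against 0.982%. With cyclic loess scaling, 36 of 46 Nduf genes were positive against 49.2% of all genes, and the medians were 0.93 and -0.01.

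This shift rested in large part on single arrays. Averaged over the 46 genes, wild-type replicates 1 to 4 gave 7.72, 8.34, 8.70 and 8.87, against 8.59, 9.16, 10.32 and 9.46 for knockout replicates 5 to 8. The groups therefore overlapped, with means of 8.41 ± 0.51 and 9.38 ± 0.72 (SD, n = 4 each). Knockout 7 was the highest array for 15 of 46 Nduf genes (32.6%), whereas over all genes it was highest for 9.44% and lowest for 31.7%. Without knockout 7, the Nduf median was 0.06 with 24 of 46 positive, against -0.29 and 32.9% positive for all genes. Without knockouts 7 and 8 together it was 0.07 with 29 positive, against -0.26 and 35.1%. Without wild-type 1 it was 0.33 with 27 positive, against -0.32 and 31.9%. Without knockout 5 it was 1.09 with 35 positive, against -0.38 and 30.1%. Among the 36 Nduf genes well above background on all 8 arrays the median was 0.20, with 25 positive. All genes under that filter gave -0.33 and 29.5%.

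**Figure D1:**
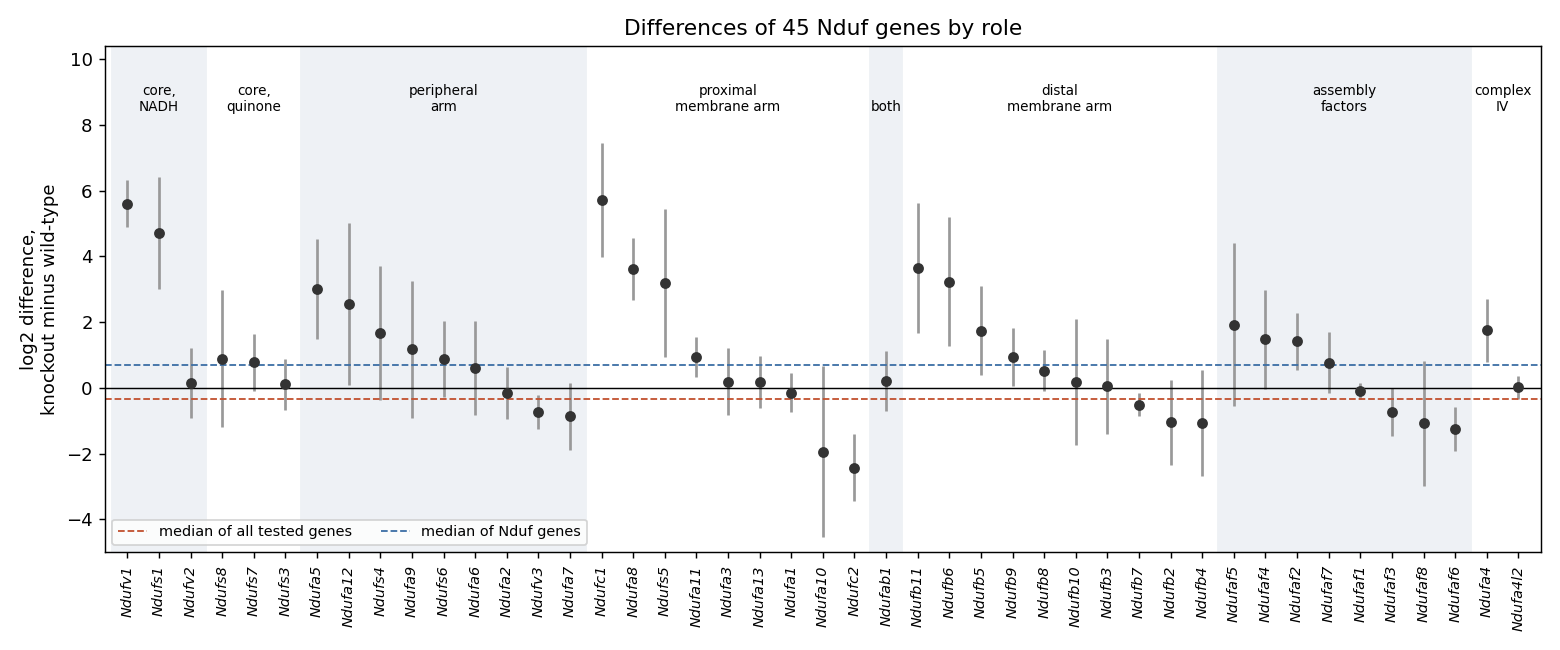
The vertical axis is the log2 difference, knockout minus wild-type, of 45 Nduf genes (points) with its standard error (bars), grouped by role along the horizontal axis. Dashed lines mark the median of the Nduf genes (0.69) and of all tested genes (-0.33). All core subunits plotted lie above 0 on their brightest probe, which is the 1 plotted for each gene.

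On their brightest probes, all 7 nuclear core subunits had positive differences, from 0.11 to 5.60, with a median of 0.89. None passed the adjusted threshold. Not all signs were firm. Over the other settings described at the end, Ndufs3 changed sign in 7, Ndufv2 in 4, and Ndufs7 and Ndufs8 in 1 each. A further probe of Ndufs3 differed by -2.24. The NADH-oxidising module, which binds NADH and takes up its electrons, held 3 of the 7, among them Ndufv1 and Ndufs1, whose wild-type signal was in part at background. The 4 of the quinone-reducing module, which hands the electrons to ubiquinone, had a median of 0.84.

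Ndufv1 carries the binding sites of NADH and of the flavin that accepts its electrons. Wild-type arrays gave a scaled log2 signal of 3.99, 3.38, 3.58 and 4.76 in replicate order, the knockout arrays 8.22, 9.36, 11.55 and 8.97. The groups did not overlap, and the lowest knockout array lay well above the highest wild-type array. The difference was 5.60 (SE 0.72, adjusted p = 0.164), the lowest adjusted p among the Nduf genes. Only 1 of 4 wild-type arrays read it well above background, and the 4 knockout arrays alone met the filter on low signal. The SE and p-value therefore rest in large part on wild-type values at background, and the size is uncertain. Within the slide rows, each of which held 2 arrays of either group, the difference was 5.09 and 6.10.

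Ndufs1, the largest core subunit, holds several iron-sulfur clusters of the NADH module. Its values were 5.03, 3.80, 3.43 and 3.69 in wild-type, and 3.44, 9.09, 9.91 and 12.34 in knockout arrays. Knockout 5 lay among the wild-type arrays and the other 3 far above them. The difference was 4.71 (SE 1.71, unadjusted p = 0.0258, adjusted p = 0.458), and without knockouts 7 and 8 together it was 2.28. The probe was well above background on 2 of 4 wild-type and 3 of 4 knockout arrays. The Ensembl probe of the gene was well above background on 2 wild-type arrays and no knockout array and was too dim to be tested, so it gave no direction.

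Ndufv2, an iron-sulfur partner of Ndufv1, showed no such separation. It was 6.73, 9.98, 8.61 and 11.21 on wild-type and 10.48, 7.85, 10.51 and 8.31 on knockout arrays, a difference of 0.16 (SE 1.07, adjusted p = 0.957). A second probe, at chr17:66442062-66442121 (mm9, minus strand), did not reach well above background anywhere.

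**Figure D2:**
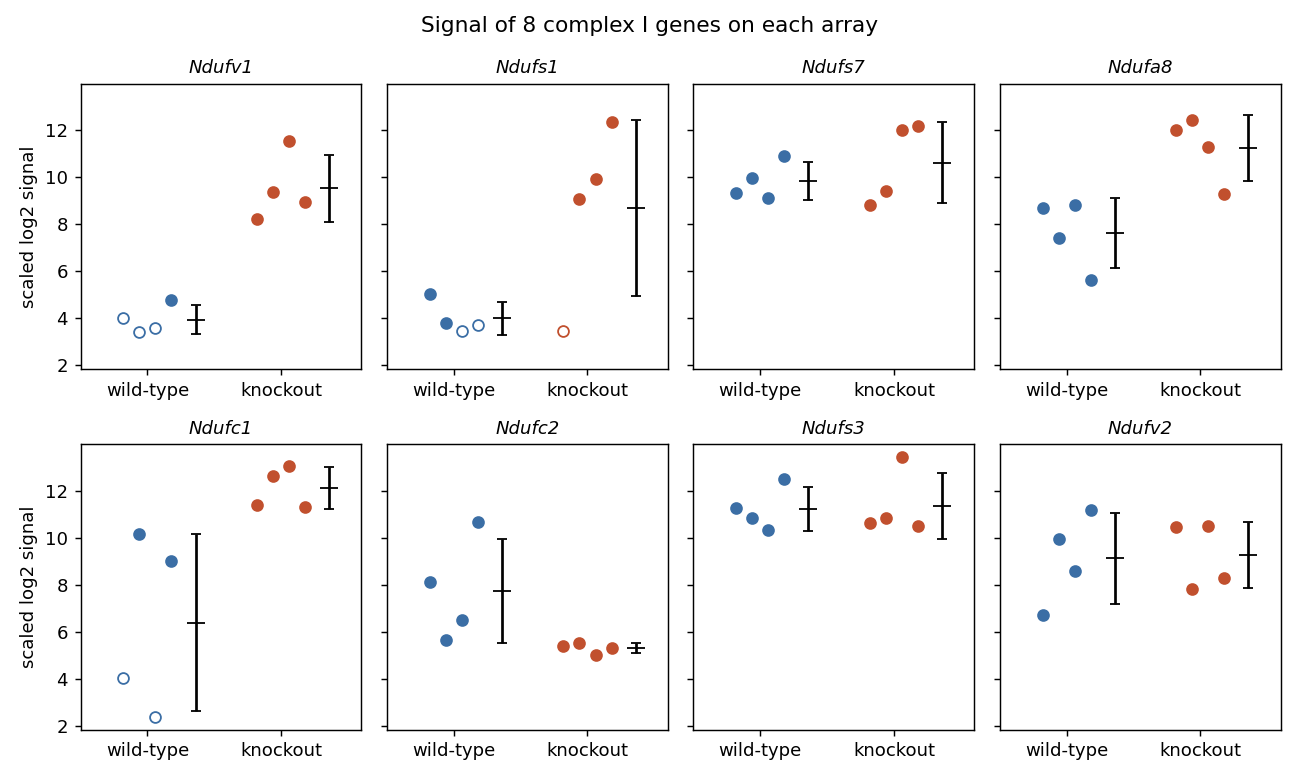
Scaled log2 signal (vertical axis) of 8 complex I genes on the 4 wild-type and 4 knockout arrays, in replicate order from left to right within a group. Filled points were well above background and open points were not, and the black marks give mean and SD. Ndufv1, Ndufa8 and Ndufc1 have all knockout arrays above all wild-type arrays, Ndufc2 has them below, and Ndufs7, Ndufs3 and Ndufv2 overlap.

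In the quinone module, Ndufs3, Ndufs7 and Ndufs8 differed by less than their spread. Ndufs3, a subunit of the peripheral arm, was 11.29, 10.83, 10.34 and 12.53 on wild-type and 10.63, 10.87, 13.44 and 10.50 on knockout arrays. Its difference was 0.11 (adjusted p = 0.957), and the groups overlapped. Its RefSeq mRNA probe, dimmer than the Ensembl probe used (chr2:90744042-90744101, mm9), differed by -2.24 (SE 2.36).

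Ndufs7 holds the last iron-sulfur cluster before ubiquinone. It was 9.34, 9.96, 9.12 and 10.92 on wild-type and 8.83, 9.43, 12.02 and 12.18 on knockout arrays, with a difference of 0.78 (SE 0.87, adjusted p = 0.711). Knockouts 7 and 8 were the 2 high arrays. A second probe was well above background only on those same 2 arrays, at 8.57 and 10.04, and ranged from 0.97 to 2.37 on the other 6.

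Ndufs8, which carries iron-sulfur clusters next to Ndufs7, was 4.14, 4.97, 3.87 and 10.44 on wild-type and 3.63, 10.94, 4.11 and 8.30 on knockout arrays. The 4 arrays not well above background, wild-types 1 and 3 and knockouts 5 and 7, are those of slide row 2, and all 4 of row 1 were well above it. The difference was 0.89 (SE 2.08, adjusted p = 0.868).

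The 29 supernumerary subunits were positive in 20 and negative in 9, with a median difference of 0.53. By place in the complex, the median was 0.88 for the 9 of the peripheral arm, 0.19 for the 9 of the proximal membrane arm and 0.36 for the 10 of the distal membrane arm. The proximal membrane arm held both the widest range, from -2.42 to 5.72, and the 3 supernumerary subunits with an unadjusted p under 0.05.

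Ndufa8, a small subunit on the intermembrane-space side of the membrane arm, was 8.68, 7.43, 8.84 and 5.60 on wild-type arrays. On knockout arrays it was 11.997, 12.46, 11.29 and 9.27, all above the wild-type values. The means were 7.64 ± 1.50 and 11.25 ± 1.41 (SD, n = 4 each), which is 12.3-fold. The difference of 3.62 (SE 0.93) had an unadjusted p of 0.00501 and an adjusted p of 0.458, and it was 4.35 and 2.88 within the slide rows. The probe was well above background on all 8 arrays.

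Ndufc1, a small membrane subunit, was 4.01, 10.18, 2.38 and 9.003 on wild-type and 11.42, 12.66, 13.08 and 11.32 on knockout arrays. The knockout arrays lay close together and the wild-type arrays split into a bright and a dim pair, the dim pair not well above background. The dim pair, wild-types 1 and 3, shares a slide row, and the difference was 9.05 within that row and 2.40 within the other. Over all arrays it was 5.72 (SE 1.73, unadjusted p = 0.0114, adjusted p = 0.458).

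Ndufc2, which pairs with Ndufc1 in the complex, differed in the opposite direction. It was 8.13, 5.66, 6.49 and 10.70 on wild-type arrays and 5.39, 5.54, 5.03 and 5.33 on knockout arrays. The knockout arrays were nearly equal, and the wild-type arrays spread upward from just above them. The difference was -2.42 (SE 1.01, unadjusted p = 0.0443, adjusted p = 0.458). Without wild-type 4 it was -1.44. The unadjusted p was no longer under 0.05 with normexp, quantile, array-median or cyclic loess scaling, in the deposited matrix, or without knockout 5, 7 or 8.

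In the peripheral arm, Ndufa5, which sits on the quinone module, had the most positive difference, 3.01 (SE 1.52, adjusted p = 0.472). It was 5.50, 8.64, 6.02 and 5.54 on wild-type and 11.56, 5.21, 11.84 and 9.13 on knockout arrays, and knockout 6 was the lowest of all 8. The difference was 0.08 within 1 slide row and 5.94 within the other. Ndufa7 had the most negative difference of that arm, -0.85 (SE 1.02), from 6.73, 8.03, 9.53 and 7.98 against 7.08, 6.71, 5.20 and 9.86. Its probe carries a RefSeq non-coding accession, and its mRNA probe was well above background on knockout 5 alone and was not tested.

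The distal membrane arm lies at the far end of the proton-pumping part. Ndufb11, an essential X-linked subunit, was 9.92, 3.76, 7.88 and 14.10 on wild-type and 11.24, 12.08, 13.12 and 13.79 on knockout arrays. Wild-type 4 was the highest array and wild-type 2 the lowest, and the difference was 3.64 (SE 1.98, adjusted p = 0.482). Ndufb4 was 8.39, 7.77, 10.25 and 8.75 against 6.48, 3.79, 11.93 and 8.69, a difference of -1.06 (SE 1.61). Ndufab1, the mitochondrial acyl carrier protein found in both arms, was 11.96, 10.63, 9.71 and 7.43 against 10.37, 9.10, 10.76 and 10.37. Its difference was 0.21, and its RefSeq mRNA probe differed by -1.22, so neither gave a clear direction.

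The 8 assembly factors named Nduf were evenly split, 4 positive and 4 negative, with a median of 0.34. Ndufaf5, which modifies Ndufs7 during assembly, was 2.21, 1.56, 2.48 and 9.74 on wild-type and 10.47, 1.04, 7.65 and 4.53 on knockout arrays. It was well above background on 1 wild-type and 3 knockout arrays, and the difference was 1.92 (SE 2.48). Ndufaf6 was 8.44, 9.98, 9.15 and 11.23 against 8.08, 9.63, 7.74 and 8.34, a difference of -1.25 (SE 0.67, adjusted p = 0.480). Its other 2 tested probes pointed the same way, at -0.39 and -0.36, and 1 more was too dim to be tested. Ndufaf1, which acts on an early membrane intermediate, was among the steadiest members, with 4.74 ± 0.22 and 4.66 ± 0.23 (SD, n = 4 each).

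Ndufa4 carries the family name but is now counted as a subunit of complex IV, and Ndufa4l2 is its paralogue, known as a target of the hypoxia factor HIF-1. Ndufa4 was 8.14, 8.86, 10.80 and 8.90 on wild-type and 12.89, 8.92, 11.86 and 10.04 on knockout arrays, a difference of 1.75 (SE 0.96, adjusted p = 0.484). Wild-type 3 lay inside the knockout range. Ndufa4l2 was flat on its brighter probe, at 6.94, 6.99, 7.31 and 7.38 against 7.03, 7.40, 7.87 and 6.44. A second probe of Ndufa4l2 differed by -0.57 (SE 0.23, unadjusted p = 0.0329, adjusted p = 0.477).

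Spread between arrays of one group was wide for the Nduf genes. Within the wild-type group, signal ranged over more than 64-fold (6 log2 units) for 12 of 46 genes, or 26.1%, against 7.40% of all tested genes and 9.74% of those with a RefSeq mRNA probe. Within the knockout group this held for 11, or 23.9%, against 7.16% and 9.08%. The median SD was 1.50 in wild-type and 1.67 in knockout arrays for Nduf genes, and 0.62 and 0.64 for all genes. Ndufa10, Ndufa12, Ndufa9, Ndufaf5, Ndufb6 and Ndufs8 passed this range in both groups. In contrast, Ndufb7 held 13.91 ± 0.37 and 13.41 ± 0.51 (SD, n = 4 each). Of 368 Nduf values, 22 were not well above background, in 10 genes, with 4 each in Ndufs8 and Ndufaf5. Their share was 4.35% to 13.0% on single wild-type arrays, against 1.50% to 10.2% of all genes. On single knockout arrays it was 0% to 6.52%, against 0.959% to 10.5%.

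**Figure D3:**
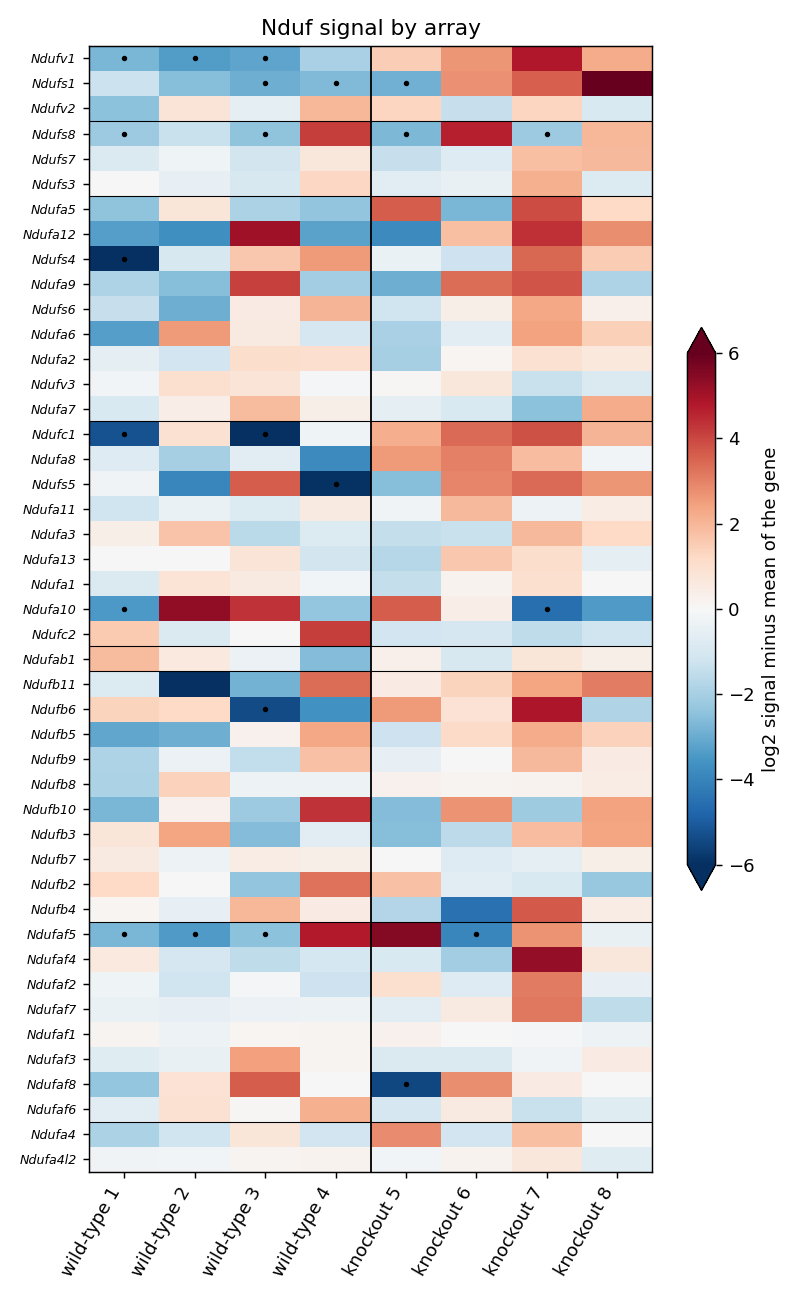
Colour gives the log2 signal of 45 Nduf genes (rows, ordered by role and then by difference) on each array (columns), minus the mean of the gene over 8 arrays. Black dots mark values not well above background. Knockout 7 is the highest array for 15 of the 45 genes plotted, and large swings occur within both groups.

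Probes of the same gene often disagreed. Of the 58 tested Nduf probes, none passed adjustment over all probes, where 0.0175% of 51378 did, and the lowest adjusted p was 0.134 (Ndufv1). At an unadjusted p under 0.05, 5 probes were higher, against 1.63% of all probes, and 2 were lower, against 8.66%. In the 10 Nduf genes with several tested probes, 5 of 12 further probes had the sign of the brightest probe (41.7%), against 59.1% of 8921 further probes over all genes. Ndufa3, Ndufaf6 and 1 probe of Ndufb2 were among those with like signs. Ndufv3 differed by -0.74 on its brightest probe and 1.94 on the other, and Ndufa10 by -1.93 and 1.59. The probe of Ndufs5 also lists the pseudogene Ndufs5-ps, so its signal cannot be assigned to either.

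**Figure D4:**
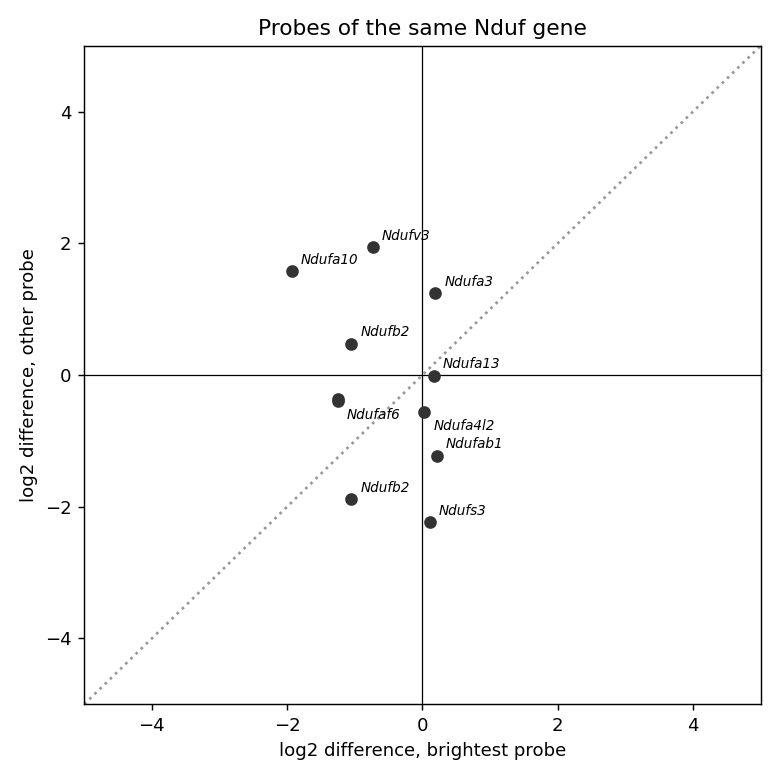
Each point is a further tested probe of a Nduf gene, with the log2 difference (knockout minus wild-type) of the brightest probe of the gene on the horizontal axis and its own on the vertical axis. The dotted line marks equal values, and 4 of the 11 points plotted lie in the quadrants of like sign.

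Slide row was the other division of the arrays. A difference was positive within both rows for 16 of 46 Nduf genes (34.8%) and negative within both for 9 (19.6%), against 13.4% and 48.0% of all genes. The median difference was 0.27 within row 1 and 0.93 within row 2, which held knockout 7 and wild-type 1. Group cannot be told apart from slide column, since wild-type arrays filled columns 1 and 2 and knockout arrays the others.

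The 7 complex I subunits encoded in mitochondrial DNA showed no comparable shift. Their differences ran from -0.42 (ND5) to 0.22, with a median of -0.26, and 3 were positive. ND5, a proton-pumping subunit, was 15.41, 15.32, 15.75 and 16.33 on wild-type and 15.10, 15.12, 15.64 and 15.25 on knockout arrays (SE 0.30, adjusted p = 0.561). ND4L differed by -0.33 (SE 0.36). The list mean was highest on wild-type 4 (15.98) and lowest on wild-type 2 (13.85), so the whole knockout range, 14.35 to 15.12, lay inside the wild-type range.

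The other lists of mitochondrial genes held no gene past the adjusted threshold. Medians were 0.34 for complex II (5 of 6 tested positive), 0.31 for complex III (7 of 9), 0.54 for complex IV (7 of 10) and 0.34 for ATP synthase (8 of 15). They stand between the Nduf median and that of all genes. In complex III, the core subunit Uqcrc2 differed by 4.52 (SE 1.87, unadjusted p = 0.0436, adjusted p = 0.458) and Uqcr10 by 1.29. In complex IV, Cox5a differed by 2.37 and Cox6a1 by 0.81, in complex II Sdhb by 1.98 and Sdhc by 0.34. In ATP synthase, Atp5g2, which encodes the ring subunit c, differed by -2.16 (SE 0.67, unadjusted p = 0.0125) and Atp5g1, another gene for subunit c, by -0.46.

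The enzymes of the tricarboxylic acid cycle, which supply NADH to complex I, were positive in 11 of 15 with a median of 1.03. Idh3g, of the NAD-dependent isocitrate dehydrogenase, was 2.09, 3.24, 2.37 and 10.30 on wild-type and 11.02, 7.93, 8.57 and 9.19 on knockout arrays. Only wild-type 4 among the wild-type arrays was well above background, so no size is given for the difference, which did not pass the threshold (adjusted p = 0.458).

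Regulators of mitochondrial biogenesis went the other way, with 7 of 10 negative and a median of -0.42, close to that of all genes. Esrra, a nuclear receptor that drives respiratory genes, differed by -0.99 (SE 0.27, unadjusted p = 0.00717) and its coactivator Ppargc1a by -0.73 (SE 0.26, unadjusted p = 0.0222). Both had an adjusted p of 0.458. Of 11 tested assembly factors with other names, 6 were positive, with a median of 0.30. Aifm1, which helps import of small intermembrane-space proteins, was 6.37, 3.72, 13.27 and 12.07 on wild-type arrays and did not stand well above background in any single knockout array. It passed the filter on low signal through the wild-type arrays alone, so its p-values rest on knockout values at background (unadjusted p = 0.0145, adjusted p = 0.458). An approximate bound, taken against the dimmest signal well above background on each array, was 37.0-fold lower there. Wild-type 2 itself lay near that dimmest signal, which averaged 3.65 over the knockout arrays. The bound rests on wild-types 3 and 4, since it was 13.3-fold without the former, 17.6-fold without the latter, 65.8-fold without wild-type 1 and 121.2-fold without wild-type 2. Acad9 differed by -0.68 (SE 0.25).

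**Figure D5:**
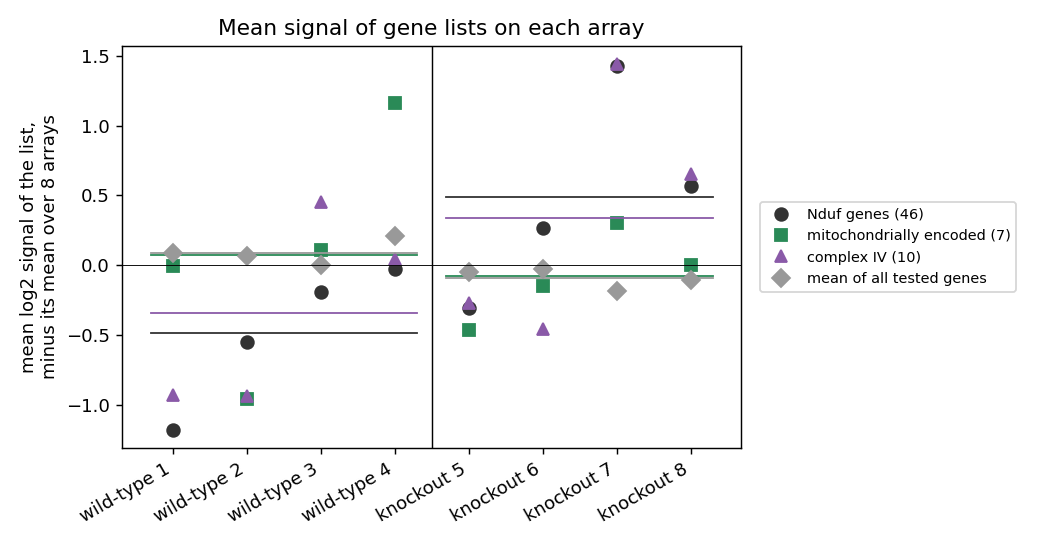
Mean log2 signal of the 46 Nduf genes, the 7 mitochondrially encoded subunits, 10 genes of complex IV and all tested genes on each array (horizontal axis), minus the mean of that list over 8 arrays. Lines give group means. The Nduf mean runs from 7.72 on wild-type 1 to 10.32 on knockout 7 before centring, and the mitochondrially encoded list has no like step between groups.

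Promoter sequences from RefSeq (GRCm38.p6, 250 bases before to 50 after the gene start) were found for 40 of the 46 genes, with 42 promoters in all. The palindrome CGCATGCG, a core of the site of nuclear respiratory factor 1 (NRF-1), which is known to act on respiratory genes, was in 4 of them (9.52%), against 1.87% of 32851 promoters. They are shown because Ndufa8, with groups that did not overlap, is among them, and capitals mark the match.
Ndufa8 (chr2:36049289-36049588, minus strand): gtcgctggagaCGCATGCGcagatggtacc
Ndufa11 (chr17:56717512-56717811, plus strand): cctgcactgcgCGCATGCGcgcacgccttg
Ndufaf4 (chr4:24897833-24898132, plus strand): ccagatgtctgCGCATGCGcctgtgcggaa
Ndufaf5 (chr2:140170396-140170695, plus strand): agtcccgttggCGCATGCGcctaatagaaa
The coordinates are those of the whole promoter window. The differences of these 4 genes were 3.62, 0.94, 1.47 and 1.92, of which none passed adjustment. Ndufaf5 was well above background on only 1 wild-type array, and 33 of all 46 Nduf genes were positive. Nrf1, which encodes NRF-1, differed by -0.02 (SE 0.21). A link of the motif to the differences was not tested. The heptamer CCGGAAG, a core of sites of ETS factors, was searched on both strands too and was in 6 promoters (14.3%), against 8.86% of all. Those were Ndufaf1, Ndufaf8, Ndufb6, Ndufb7, Ndufs3 and Ndufs8, with differences from -1.08 to 3.23, and no gene had both motifs. A match is a description of these letters, not evidence of binding.

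Facts of the whole set bear on these values. Between 76.1% and 88.2% of gene spots were well above background, with 76.1% to 81.6% in slide row 2 and 86.2% to 88.2% in row 1. Selplg, the targeted gene, was 13.81 ± 1.36 on wild-type and 13.18 ± 0.24 on knockout arrays (SD, n = 4 each), a difference of -0.63 (SE 0.64, adjusted p = 0.684). Its signal therefore did not separate the labels. The sources used here do not give the deleted part, so whether its probe lies inside it was not tested, and each direction above is that of the labels.

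Monocyte and macrophage markers were well above background on all 8 arrays in 12 of 12. So were 7 of 7 tested neuron markers and 8 of 8 of conventional dendritic cells, so detection did not tell cell types apart. The monocyte and macrophage list mean ran from 10.52 to 12.77 on wild-type and from 11.33 to 12.95 on knockout arrays, with a median difference of 0.19. The microglia list (8 of 8 above background throughout) ran from 9.98 to 12.36 and from 10.88 to 12.17, with a median difference of 0.08. The neutrophil list ran from 6.35 to 8.35 and from 7.76 to 9.54, with 6 of 8 positive. Within it, S100a9, which monocytes also express, differed by 4.79 (SE 1.43, unadjusted p = 0.0109, adjusted p = 0.458), and every knockout array lay above every wild-type array. Ly6g, the marker used to gate out neutrophils, differed by 2.40 (SE 1.54, unadjusted p = 0.161, adjusted p = 0.527), and its groups overlapped. It was dim on wild-type 1, at 2.30, against 6.74 to 8.59 on the other wild-type arrays, so the size is uncertain. The 2 negative genes of the list, Camp and Ltf, differed by -0.69 (SE 1.02) and -0.31 (SE 0.38). Like the Nduf genes and the complex II list, both the monocyte and the neutrophil list were highest on knockout 7 and lowest on wild-type 1. The part of these cells in the Nduf differences was not tested.

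The remaining lists had median differences from -0.67 (conventional dendritic cells, which the gate does not remove) to 0.02 (astrocytes). Tested T cell markers were negative in 7 of 7, where 29256 of all 42430 tested genes were negative. The T cell means ran from 7.60 to 8.29 on wild-type and from 6.72 to 7.82 on knockout arrays. B cell means ran from 9.56 to 10.08 and from 9.44 to 9.53, and those of conventional dendritic cells from 7.95 to 8.73 and from 7.28 to 7.90. For neurons they ran from 11.00 to 12.09 and from 10.60 to 11.69, for astrocytes from 8.27 to 8.31 and from 8.25 to 8.90. Oligodendrocyte means ran from 7.89 to 9.21 and from 8.25 to 9.13, endothelial means from 9.34 to 9.63 and from 8.79 to 10.35, and red blood cell means from 8.72 to 9.54 and from 8.69 to 9.21. None of these lists had a gene past the adjusted threshold. In such bulk samples, fewer cells of a type and less RNA per cell cannot be told apart.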

How the data were processed

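Per the file headers, each of 8 samples was hybridised to a single-colour Agilent custom array (design build mm9) and read with Feature Extraction 11.5.1.1. The headers also gave slide row and column. The arrays were taken to be on 1 slide with 1 scan. The deposited scanner files give spot brightness as a linear intensity, which the authors' scanner software had corrected for background. Per the labels' protocols, cRNA was made with random primers in a low-input kit. A deposited series-wide matrix, also of intensity (59448 rows), had identical sorted values in each column (median 132.9) and a correlation of at least 0.9893 with the matching array and at most 0.8015 with others. No source used here states its scale, centring or direction. The comparison found it linear and quantile normalized, and it served as an alternative.

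Control spots and spots marked as outliers were left out, and spots of a probe were averaged. Log2 values were reduced by their array's 75th percentile, and the mean of that percentile over arrays was added back, so levels read as log2 signal. Each gene took its brightest probe, kept if at least 4 of 8 arrays read it well above background. Symbols were updated through RefSeq (GRCm38.p6) for 67.1% of probes. Differences were fitted with limma 3.58.1 (lmFit, eBayes; R 4.3.3) over all genes, two-sided, with Benjamini-Hochberg adjustment. Python 3.11.15 with numpy 2.4.6, pandas 2.3.3 and matplotlib 3.10.9 were also used. The fit was tested on simulated data. The number of arrays limits the precision.

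Named genes were the 7 core subunits, members with an unadjusted p under 0.05 or with groups that do not overlap, the extremes of each role, Ndufa4 and Ndufa4l2, and the 2 smallest p-values of each pathway list. Other genes were named after their values were seen, and the values of some single genes are not reported here. The members and lists were chosen with earlier results of these data known. A rule to choose probes through their protein was not applied, as no protein table was used here.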

Additional observations from a re-analysis of the deposited data

Results flagged for a closer look

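Among 40 groups of 4 arrays (the named genes and the list mean, in each genotype), 4 held an array that stood apart from the other 3 by Dixon's criterion. Chance alone gives about 1 such group in 20. Ndufa5 was 8.64 on wild-type 2 and between 5.50 and 6.02 on the other wild-type arrays. Ndufaf5 reached 9.74 on wild-type 4, against 1.56 to 2.48. Ndufs8 was 10.44 on the same array, against 3.87 to 4.97. Ndufs3 was 13.44 on knockout 7, against 10.50 to 10.87 on the other knockout arrays.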

How the results depend on the processing

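Over 22 other settings, no Nduf gene passed the adjusted threshold. The 4 genes higher at an unadjusted p under 0.05 became 1 with the filter on all 8 arrays, against 1.44% of all genes. Fewer genes were tested there. The count was 2 among genes above the median signal, against 2.00%, and 2 without knockouts 7 and 8 together, against 2.21%. With single arrays left out it ranged from 3 to 7 (7 without wild-type 3), against 1.43% to 1.97% of all genes. The 1 lower gene became 0 with normexp, quantile, array-median and cyclic loess scaling and in the deposited matrix, against 1.89% to 4.62% of all genes. Among brighter genes it was 0 too, against 10.5%. With arrays left out it ranged from 0 to 1, against 4.73% to 9.20%. The 3 genes with every knockout array above became 1 with the filter on all 8 arrays, against 0.561% of all genes. They ranged from 3 to 5 with single arrays left out, where the share of all genes rose each time too. The count was 5 without wild-type 3 or 4, against 1.45% and 1.34% of all genes, compared with 0.648% on all arrays. Without knockouts 7 and 8 together it was 3, against 3.84%. The 1 gene below became 0 with normexp, with cyclic loess and among brighter genes, and 3 without knockouts 7 and 8 together, and ranged from 1 to 2 with arrays left out. Shares of all genes below under these settings are not given here, so these counts cannot be read against them. The cause was not tested. The median difference stayed positive, from 0.06 to 1.09, while that of all genes ran from -0.39 to -0.01. Of 404 values of the 19 named genes, 24 changed sign, and 12 genes had no change. Ndufv1 ran from 3.47 to 6.03 (adjusted p from 0.102 to 0.440) and Ndufs1 from 2.28 to 6.46. Leaving out knockouts 7 and 8 together, the differences within each slide row, the use of RefSeq mRNA probes alone and the bounds of Aifm1 without single arrays were chosen after seeing the data. No paired analysis was possible because the groups share no replicate number.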
